A study of Mus musculus with 6 samples.

Results

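The genes described here are the solute carriers that move transmitters, amino acids and inorganic ions across neuronal and glial membranes. They were chosen by name: all protein-coding genes of the GENCODE M21 mouse annotation whose symbol starts with Slc1a, Slc4a, Slc6a, Slc7a, Slc8a, Slc8b, Slc9a, Slc12a, Slc17a or Slc24a. The rule gave 93 genes, of which 81 had at least 1 transcript event listed in at least 1 library, among 16154 genes listed in all. These 81 genes held 620 of the 132823 distinct events. The symbol rule also took in 4 genes that are named after a carrier but are not carriers: Slc4a1ap (kanadaptin), Slc7a6os (an opposite-strand neighbour of Slc7a6), and Slc9a3r1 and Slc9a3r2 (PDZ scaffold proteins that bind Na/H exchangers).

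The tissue was the nucleus accumbens (NAc) of adult C57BL/6N males after training for conditioned place preference (CPP), a task in which a chamber is paired with an injection. Morphine or saline was injected intraperitoneally, the methods describe morphine and saline sessions that alternated within a day, and the tissue was collected after the preference test. Total RNA gave 3 saline and 3 morphine libraries, and each was deposited as a list of transcript events drawn from an assembly of its reads. The series text counts more mice than samples while the study's figure text presents single mice, so how many animals stand behind a library cannot be told, and p-values measure the spread between libraries only.

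An event marks a place at which the assembled transcripts of a gene differ or begin and end. The same place can give more than 1 event. Each form of an exon with alternative ends counts separately. So does an intron or exon listed both exactly and as approximate, a type whose neighbouring exon edges do not match exactly. Event numbers are therefore not numbers of separate sites. The lists hold transcript starts and ends, cassette exons (exons that are present in some transcripts and skipped in others), retained introns, and exons with alternative ends. A start is given by the splice-side edge of the first exon and an end by the splice-side edge of the last exon. The lists record that an event was assembled, and give no usable level. An event or gene that is missing from a list was not assembled from that library, which is not the same as being absent from the tissue.

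Carriers end and shape synaptic transmission. Glutamate and GABA are cleared by sodium-coupled uptake into astrocytes and nerve endings and are loaded into vesicles by separate proton-driven carriers, while cation-chloride cotransporters set the chloride gradient on which inhibition by GABA depends. Na/Ca and Na/H exchangers and bicarbonate carriers restore calcium and pH after firing. Most neurons of the NAc are GABAergic medium spiny neurons, and its glutamate and dopamine arrive in axons from cortex, thalamus, amygdala and midbrain.

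The libraries held between 54660 and 62209 events in 14243 to 14956 genes. Their relative depth was estimated from 91 ratios of read count to FPKM in a deposited table of long non-coding RNAs, limited to transcripts that the authors had called different between the groups, and is a rough value. Set to 1 for saline library 1, it reached 1.59 in morphine library 2, and the morphine mean was 1.19 times the saline mean. Morphine library 1 stood apart by retained introns, with 9534 such events over all genes, followed by saline library 1 with 7925, against 5409 to 7291 in the other 4. All 10 marker genes of medium spiny neurons were listed in all 6 libraries, among them Drd1, Drd2 and Penk, as were all 6 astrocyte, all 5 oligodendrocyte and all 4 microglial markers. Of the markers in the 9 cell type lists, 0 had event numbers that did not overlap between the groups; over all 16154 listed genes the share was 1.8% for higher and 0.966% for lower in morphine, so few or none would be met in lists of this size.

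Of the 93 genes, 81 (87.1%) were listed in at least 1 library, against 72.5% of 21951 protein-coding genes. In all 6 libraries 61 (65.6%) were listed, against 59.5%, and 41 (44.1%) had an annotated first and an annotated last exon listed in all 6, against 40.4%. Another 26 had both in 1 to 5 libraries, 14 were listed but never with both in the same library, and 12 were not listed. The 21951 genes include 1331 with single-exon transcripts only, of which 10.1% were listed, while the carriers include 0 such genes. These genes lower the shares over all protein-coding genes, so part of the difference from the carriers comes from them. The listed carriers had a median of 6 distinct events each, from 2 to 32, against a median of 5 over all listed genes. Exon skipping was listed in 30 of the 81 genes (37.0%, against 32.9% of all listed genes), intron retention in 30 (37.0% against 30.8%) and alternative exon ends in 21 (25.9% against 25.2%). The remaining 38 carriers had starts and ends only.

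**Figure D1:**
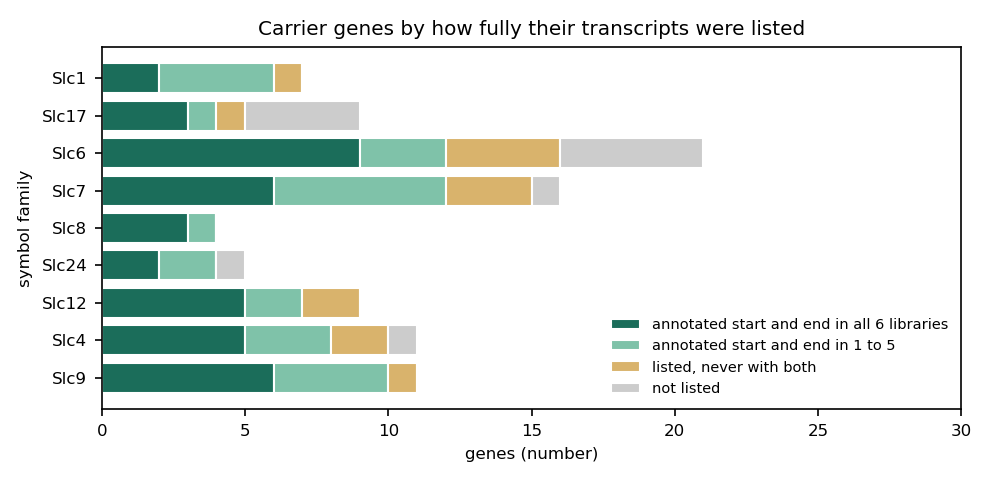
Number of carrier genes (horizontal axis) in each symbol family (vertical axis), split by how completely their transcripts were listed. Dark green bars are the 41 genes with an annotated start and end in all 6 libraries, light green the 26 with both in 1 to 5, yellow the 14 listed without both in any library, and grey the 12 not listed, 5 of them in Slc6 and 4 in Slc17.

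Several carriers were assembled in 2 forms that differ by a short coding exon. Of the 45 exon skipping events 22.2% were listed in all 6 libraries, against 10.7% of alternative exon end, 3.45% of intron retention and 26.6% of start and end events. Over all genes the shares had the same order, at 19.7%, 9.09%, 1.70% and 29.8%. A single cassette exon is an exon that is listed both as included and as skipped between the same neighbours. The carriers held 37 of them in 27 genes, 33 at annotated exons, and 9 exons in 7 genes were listed in all 6 libraries. Of these 9, 8 had a length that is a multiple of 3. A fully coding exon of such a length leaves the reading frame as it is when included or skipped. The 39-nt exon of Slc4a10, among these 8, is only partly coding in its annotated transcript, so this cannot be said of it. The share with a length that is a multiple of 3, coding or not, was 23 of 37 (62.2%) over all carrier cassettes. It was 51.2% of 8834 single cassette exons in all genes, and 69.6% of the 2135 that all genes held in all 6 libraries.

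Examples of the exons listed in all 6 libraries are printed below in the strand of the gene, 5′ to 3′, from the GENCODE M21 transcripts on build GRCm38. The cassette is in capitals, with 12 bases of the neighbouring exon on each side in lower case. These exons are shown because both forms of each were assembled in every library, except Slc8a2, which is shown beside its relatives Slc8a1 and Slc8a3.
Slc8a1 69 nt: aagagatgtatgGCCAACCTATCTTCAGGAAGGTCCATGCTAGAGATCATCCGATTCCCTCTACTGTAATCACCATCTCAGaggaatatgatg
Slc8a3 18 nt: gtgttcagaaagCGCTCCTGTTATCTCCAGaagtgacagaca
Slc8a2 18 nt: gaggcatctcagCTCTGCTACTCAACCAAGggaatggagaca
Slc24a2 51 nt: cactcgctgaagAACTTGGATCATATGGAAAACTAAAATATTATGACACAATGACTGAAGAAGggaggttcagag
Slc4a10 90 nt: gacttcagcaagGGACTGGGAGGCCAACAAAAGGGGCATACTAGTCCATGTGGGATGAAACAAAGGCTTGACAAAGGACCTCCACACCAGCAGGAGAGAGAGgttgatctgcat
Slc4a4 97 nt: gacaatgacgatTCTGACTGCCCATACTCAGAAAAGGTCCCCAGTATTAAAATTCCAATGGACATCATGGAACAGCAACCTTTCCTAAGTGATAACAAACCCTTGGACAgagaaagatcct
Slc4a1ap 87 nt: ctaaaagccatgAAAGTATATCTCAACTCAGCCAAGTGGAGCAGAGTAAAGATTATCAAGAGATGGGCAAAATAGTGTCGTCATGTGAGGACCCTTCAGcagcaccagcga

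None of these exons holds a stop codon in its annotated frame. Read in that frame, the Slc8a1 exon adds 23 codons, the Slc24a2 exon 17, the Slc4a10 exon 30 and the Slc8a3 exon 6. The Slc4a4 exon is the exception: with 97 nt, 1 more than 32 whole codons, its skipping changes the frame of what follows. GC content of the printed exons ran from 29.4% in Slc24a2 to 55.6% in Slc8a3.

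The Na/Ca exchangers, which export calcium in return for sodium, had a cassette exon listed in 3 of 4 genes. The 69-nt exon of Slc8a1 (chr17:81437745-81437813, minus strand, exon 6 of 10 in the annotated transcript) was listed in all 6 libraries, and a 21-nt exon of the same gene (chr17:81442203-81442223) in saline library 3 alone. The 18-nt exon of Slc8a3 (chr12:81209454-81209471, minus strand) was listed in all 6. The 18-nt exon of Slc8a2 (chr7:16150574-16150591, plus strand) was listed in saline library 2 and morphine library 2, among the 4 libraries in which Slc8a2 was listed with its annotated start and end. Saline library 1 and morphine library 1 did not list Slc8a2 at all. Slc8b1, the mitochondrial Na/Ca exchanger, had 3 events in 5 libraries and 2 in morphine library 3.

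Of the potassium-dependent Na/Ca exchangers of the Slc24 family, Slc24a2 had 2 cassette exons in all 6 libraries, of 51 nt (chr4:87049884-87049934) and of 186 nt (chr4:87176162-87176347, both minus strand), and the donor edge of the second was also listed as a transcript start in all 6. Its event number was 8, 8 and 5 in the saline and 7, 8 and 7 in the morphine libraries, and the groups overlapped. Slc24a3 had a 75-nt cassette exon in saline library 3 and morphine library 1. Slc24a4 had no single cassette exon, but an exon with 2 donors in 5 libraries, all except saline library 1. Slc24a5 had starts and ends only, in 4 libraries, and Slc24a1 was not listed.

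Among the cation-chloride cotransporters, Slc12a2 (NKCC1, which loads cells with chloride) had a 48-nt coding cassette in 5 libraries, all except morphine library 3. Slc12a5 (KCC2, the neuronal chloride exporter) had a 15-nt cassette, the shortest of the carriers, in saline libraries 1 and 3 and morphine library 3. Neither pattern divided saline from morphine. Slc12a5 also had 2 annotated starts in all 6 libraries, the splice-side edges of its alternative first exons at positions 164961003 and 164968454.

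The bicarbonate carriers, which move base across the membrane to hold pH, held 3 of the 9 exons listed in all 6 libraries, in 2 genes. Slc4a10, a sodium-bicarbonate carrier of neurons and choroid plexus, had cassettes of 90 nt (chr2:62244352-62244441) and 39 nt (chr2:62317476-62317514) in all 6 libraries. The 39-nt exon is partly coding in its annotated transcript. Slc4a4 (NBCe1, the electrogenic sodium-bicarbonate carrier of astrocytes) had the frame-changing 97-nt exon (chr5:89232764-89232860) in all 6, and exon 24 of 26 is its place in the annotated transcript. Slc4a1ap, which is not a carrier, had an 87-nt cassette (chr5:31546180-31546266) in all 6.

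Slc7a10 (Asc-1, an exchanger of small neutral amino acids that handles D-serine and glycine) had a 150-nt exon (chr7:35199540-35199689, exon 9 of 11) in all 6 libraries, listed as an approximate cassette, for which the neighbouring exon edges of the 2 forms do not match exactly. The taurine carrier Slc6a6 had a 125-nt cassette in 4 libraries, 2 of each group. Slc1a2 (GLT-1, the main glutamate carrier of astrocytes) had a 71-nt exon, partly coding in a short annotated transcript, in saline libraries 2 and 3 and morphine library 2. Of the 37 single cassette exons, 12 were listed in 1 library only, and 0 of 37 were listed in all libraries of one group and in no library of the other. Over all events the share so listed was 0.381% for morphine and 0.277% for saline, so a count of 0 among 37 is near the background.

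**Figure D2:**
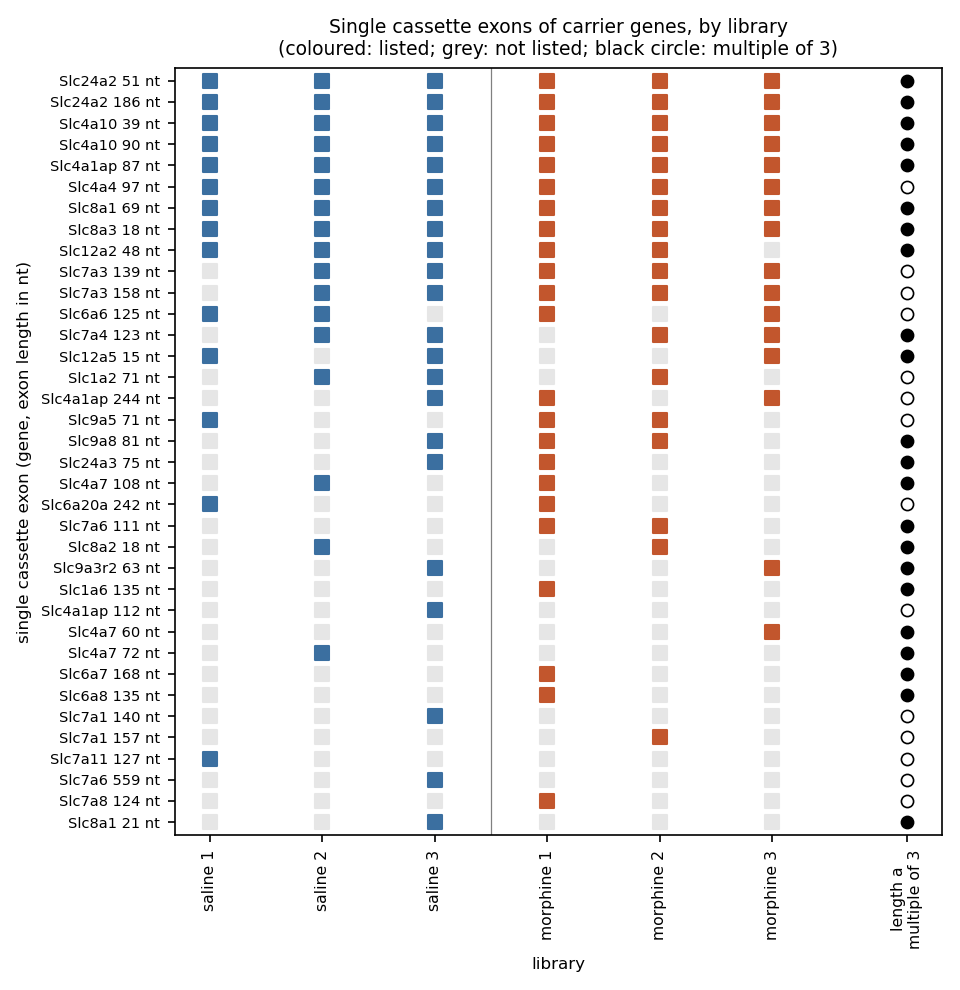
Each row is 1 of 36 of the 37 single cassette exons of carrier genes, named by gene and length in nucleotides, and each column a library (blue squares: listed in a saline library, orange: listed in a morphine library, grey: not listed). Filled circles at the right mark a length that is a multiple of 3, which holds for 7 of the 8 exons at the top that were listed in all 6 libraries.

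Exons with 2 ends were also listed repeatedly. In 4 genes, both versions of an exon were listed in all 6 libraries: Slc4a4, Slc17a5, Slc4a3 and Slc6a15. The Slc4a4 exon ends at either of 2 donors 27 nt apart (segment chr5:89046366-89046392), which adds 9 codons. The Slc17a5 exon begins at either of 2 acceptors 16 nt apart (segment chr9:78574738-78574753), and the longer form is annotated as non-coding. The segments of Slc4a3 (43 nt) and Slc6a15 (130 nt) lie in partly coding exons. In Slc24a4, 5 of 6 libraries listed 2 donors 57 nt apart (segment chr12:102230437-102230493). The coding segments, in capitals between 12 bases on each side, are printed to show what the longer forms add.
Slc4a4 27 nt: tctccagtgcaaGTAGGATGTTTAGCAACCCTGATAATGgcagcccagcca
Slc24a4 57 nt: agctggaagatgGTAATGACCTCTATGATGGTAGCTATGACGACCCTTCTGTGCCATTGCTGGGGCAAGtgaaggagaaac

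The carriers were next described by role. Of the glutamate uptake carriers, Slc1a1 (EAAC1, neuronal) was listed in every library with the same annotated start and end and nothing else. Slc1a3 (GLAST, astrocytic) had its annotated start in all 6 libraries and an annotated end in 5. In saline library 3 its end was placed on the other strand. Slc1a2 was listed with its annotated start and end in saline libraries 2 and 3 and morphine libraries 1 and 2. In saline library 1 and morphine library 3 its entries lay on the other strand only. Slc1a4 (ASCT1, a neutral amino acid exchanger) had both annotated ends in 5 libraries, and Slc1a5 (ASCT2, its relative for glutamine) was not listed in saline library 1 and had both in the other 5.

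Such entries on the other strand numbered 21 in 12 carrier genes. They made up 3.39% of carrier events and also 3.39% of all events. In all 27 cases of a gene and library with a start or an end on the other strand, no start or end of that class was listed on the gene's own strand, so a missing annotated start or end of Slc1a2, Slc1a3, Slc4a8, Slc7a14 or Slc12a5 in a library went with an entry on the other strand.

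The vesicular glutamate carriers were listed alike in all libraries. Slc17a6 (VGLUT2), Slc17a7 (VGLUT1) and Slc17a8 (VGLUT3) each had 1 annotated start and 1 annotated end in all 6, and the 1 further event was a retained intron of Slc17a7 in morphine library 1. VGLUT3 is known from cholinergic interneurons of the striatum, whereas VGLUT1 and VGLUT2 are better known from cortical and thalamic neurons. Slc17a9, the vesicular nucleotide carrier, was listed in 2 libraries, without an annotated start or end. Slc17a1, Slc17a2, Slc17a3 and Slc17a4, phosphate and urate carriers of kidney and gut, were not listed.

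Of the GABA carriers, Slc6a11 (GAT-3) had the same annotated start and end in all 6 libraries and no other event. Slc6a13 (GAT-2, of the meninges and liver) had its annotated ends in all 6 with further events in saline library 3 and morphine libraries 1 and 3. The glycine carrier Slc6a9 (GlyT1) used 3 annotated first exons, 2 of them in all 6 libraries and the first in all except morphine library 3. Slc6a17, a vesicular carrier of neutral amino acids in neurons, had 2 annotated starts in all 6. Slc6a5 (GlyT2), the carrier of glycinergic neurons of brainstem and spinal cord, was listed in saline library 2 and morphine library 2, without an annotated start or end.

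Of the monoamine carriers, 1 was listed in part and 2 were not listed. Slc6a3 (the dopamine carrier) was listed in saline libraries 2 and 3 and morphine libraries 1 and 3, and no library held both its annotated start and its annotated end. The start was at the annotated first exon in morphine library 1 alone, and the end at the annotated last exon in saline library 3 and morphine library 3. Slc6a2 (noradrenaline) and Slc6a4 (serotonin) were not listed in any library. All 3 carriers are made in cell bodies that lie outside the NAc. The other dopamine neuron markers, Th, Slc18a2 and Ddc, were listed with annotated starts and ends in all 6 libraries.

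Of the amino acid exchangers of the Slc7 family, Slc7a5 (LAT1, which carries large neutral amino acids and levodopa) had the same annotated start and end in all 6 libraries and no other event. Slc7a11 (xCT, the cystine-glutamate exchanger of astrocytes) had its annotated start in all 6 and its annotated end in 5. Slc7a8 (LAT2) had 4, 3 and 5 events in the saline and 3, 3 and 2 in the morphine libraries, with a shared value of 3 between the groups. Slc7a6 (y+LAT2, which exchanges arginine for glutamine) was the second richest carrier, with 29 distinct events. Of the Na/H exchangers, Slc9a9 (endosomal) had 2, 3 and 5 events in the saline and 3 in each morphine library.

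Starts and ends made up 384 of the 620 events. Of 223 starts, 60 were listed in all 6 libraries and all 60 lay at annotated first exons. Of 161 ends, 42 were listed in all 6 and all 42 lay at annotated last exons. By contrast, of the 114 starts listed in 1 library only, 17 were annotated and 72 lay at the edge of an internal exon. In 11 genes at least 2 starts were listed in all 6 libraries (among them Slc4a2, Slc4a3, Slc4a4, Slc6a8, Slc6a9, Slc6a17, Slc7a4, Slc9a3r2, Slc12a5 and Slc24a2), and Slc7a4 had 3. No gene had 2 ends in all 6.

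Retained introns varied most. Of 76 single retained introns, 68 were annotated, 39 were listed in 1 library only and 4 in all 6. The 4 lay in Slc4a7 (chr14:14739914-14745967, 6054 nt), Slc6a6 (chr6:91749830-91750272, 443 nt) and Slc7a6os (chr8:106202352-106204330 and chr8:106202360-106204330, which share an end and nearly all their length). Slc4a7 (NBCn1, an electroneutral sodium-bicarbonate carrier) was the richest gene, with 32 distinct events, and its event numbers of 9, 16 and 3 in saline and 6, 4 and 15 in morphine ranged as widely within each group. Of the intron retention events, the number found in 1 library alone was 30 for morphine library 1 and 17 for saline library 1, against 3 to 9 for the other 4.

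Morphine and saline were then compared over all carriers. The event number per library was 272, 247 and 252 in saline and 321, 272 and 250 in morphine. The means were 257 ± 13.2 and 281 ± 36.3 (SD, n = 3), a difference of 9.34% (exact permutation test, two-sided, p = 0.5). The 2 groups overlapped, and the highest value was that of morphine library 1. With 3 libraries against 3 the smallest p that the exact permutation test allows is 0.1, and after Benjamini-Hochberg adjustment over the 6 numbers compared per library each p was 0.6.

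By kind of event, exon skipping numbered 19, 20 and 27 in saline and 28, 24 and 22 in morphine, with means of 22 ± 4.36 and 24.7 ± 3.06 (SD, n = 3; exact permutation p = 0.5). Intron retention numbered 48, 21 and 20 in saline and 63, 31 and 28 in morphine, with means of 29.7 ± 15.9 and 40.7 ± 19.4 (SD, n = 3; exact permutation p = 0.5). In both groups library 1 was well above the other 2, and these are the libraries with most retained introns over all genes. Without morphine library 1 the difference of 11 events per library became -0.167 (exact permutation p = 1), and without saline library 1 it became 20.2.

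Alternative exon ends numbered 23, 24 and 26 in saline and 42, 28 and 21 in morphine (means 24.3 ± 1.53 and 30.3 ± 10.7, SD, n = 3; exact permutation p = 0.6). Starts and ends numbered 182, 182 and 179 in saline and 188, 189 and 179 in morphine (means 181 ± 1.73 and 185 ± 5.51, SD, n = 3; exact permutation p = 0.4). The number of carrier genes listed was 65, 71 and 72 in saline and 69, 75 and 73 in morphine (means 69.3 ± 3.79 and 72.3 ± 3.06, SD, n = 3; exact permutation p = 0.4). The groups overlapped in all 6 numbers. All 6 means were higher in morphine, although starts and ends per 1000 events of the library differed by -0.0988 (morphine minus saline). Scaled in this way, all carrier events differed by 3.30% (exact permutation p = 0.9), against 9.34% unscaled. Exon skipping, intron retention and alternative exon ends differed by 5.90%, 29.4% and 16.9%, against 12.1%, 37.1% and 24.7% unscaled. Mean relative depth was also higher in morphine, but the depths of the libraries overlapped between the groups. The part of depth in these numbers was not tested.

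**Figure D3:**
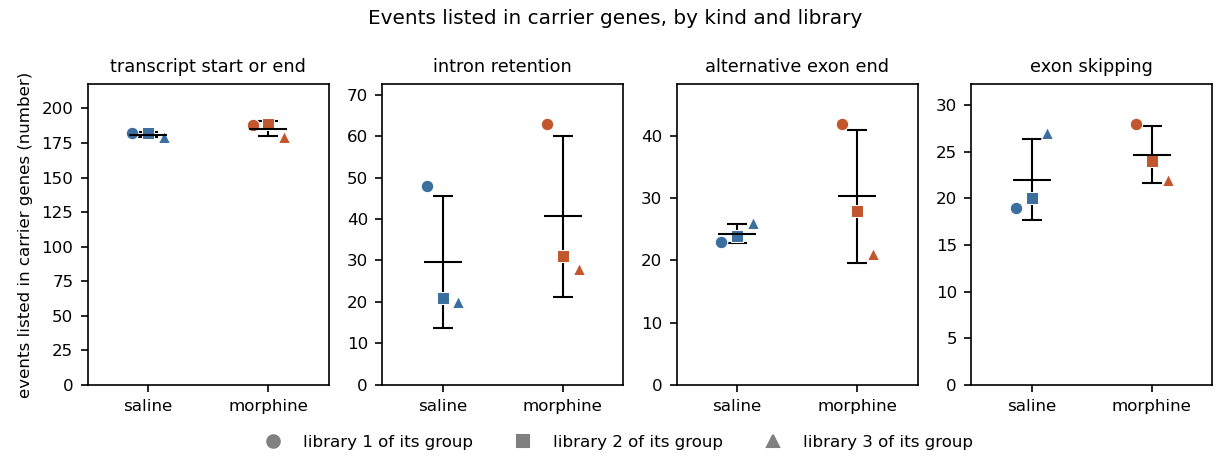
Number of events listed in carrier genes per library (vertical axes, each from 0) for the 4 kinds of event, with the 3 saline libraries in blue, the 3 morphine libraries in orange, and horizontal bars with whiskers for the mean and SD. The groups overlap in every panel, and library 1 of each group lies highest in intron retention, at 48 and 63 events.

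By family, the event totals of the groups overlapped in each of the 9 families. The Slc6 genes had 45, 41 and 38 events in saline and 75, 45 and 45 in morphine, and in morphine library 1 a large share lay in Slc6a8. That gene, the creatine carrier on chromosome X, had 7, 5 and 3 events in saline and 25, 5 and 3 in morphine. Of its 27 distinct events, 20 were listed in morphine library 1 alone, and most of them were retained introns and exons joined across them in the middle of the gene. Some of them list the same intron or exon both exactly and as approximate, so they are not separate sites. Without Slc6a8, which was set aside after its values were seen, the Slc6 genes had 38, 36 and 35 events in saline and 50, 40 and 42 in morphine. These trimmed totals did not overlap and were higher in morphine. No other family was trimmed in this way, no background share is given for such totals, and no test was made. Nothing can therefore be concluded from this separation. The Slc9 family had 44, 35 and 30 events in saline and 31, 40 and 26 in morphine, and the Slc17 family 15, 11 and 13 against 21, 18 and 13.

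Single genes were compared by whether the 3 event numbers of one group lay entirely above those of the other. Of the 81 listed carriers, 1 (1.23%) was higher in morphine, against 1.8% of 16154 listed genes, and 1 (1.23%) was lower, against 0.966%. Neither share stands out from the background.

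The gene with more events in morphine was Slc4a2 (AE2, an anion exchanger that moves chloride against bicarbonate, chr5:24423837-24440950, plus strand). It had 5, 4 and 5 events in saline and 7, 11 and 7 in morphine, or 4.67 ± 0.577 and 8.33 ± 2.31 (SD, n = 3). Since the gene was picked for groups that do not overlap, its exact permutation p was fixed at 0.1, the smallest possible. The p is therefore no support for a difference in this gene. Its starts and ends numbered 4, 4 and 5 in saline and 3, 5 and 5 in morphine, so the separation came from within the gene. Intron retention events numbered 1, 0 and 0 in saline and 4, 3 and 2 in morphine. The 90-nt intron at chr5:24439991-24440080 was listed as a single retained intron in morphine libraries 2 and 3. In morphine library 1 it lay within a longer retained run (chr5:24439991-24440403), and no saline library listed either. Neither the single intron nor the longer run was itself listed in all 3 morphine libraries. They were joined only after the gene had been picked for higher numbers in morphine. No background share is given for regions joined in this way, so nothing can be concluded from this pattern. In morphine library 2 the 90-nt intron was listed both exactly and as approximate, and so counts as more than 1 event. Another run (chr5:24434240-24434634) was listed as retained in saline library 1 and in morphine libraries 1 and 3. The retained introns of all genes were also more numerous in morphine library 1 than in any other, and the part of these in the result for Slc4a2 was not tested.

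**Figure D4:**
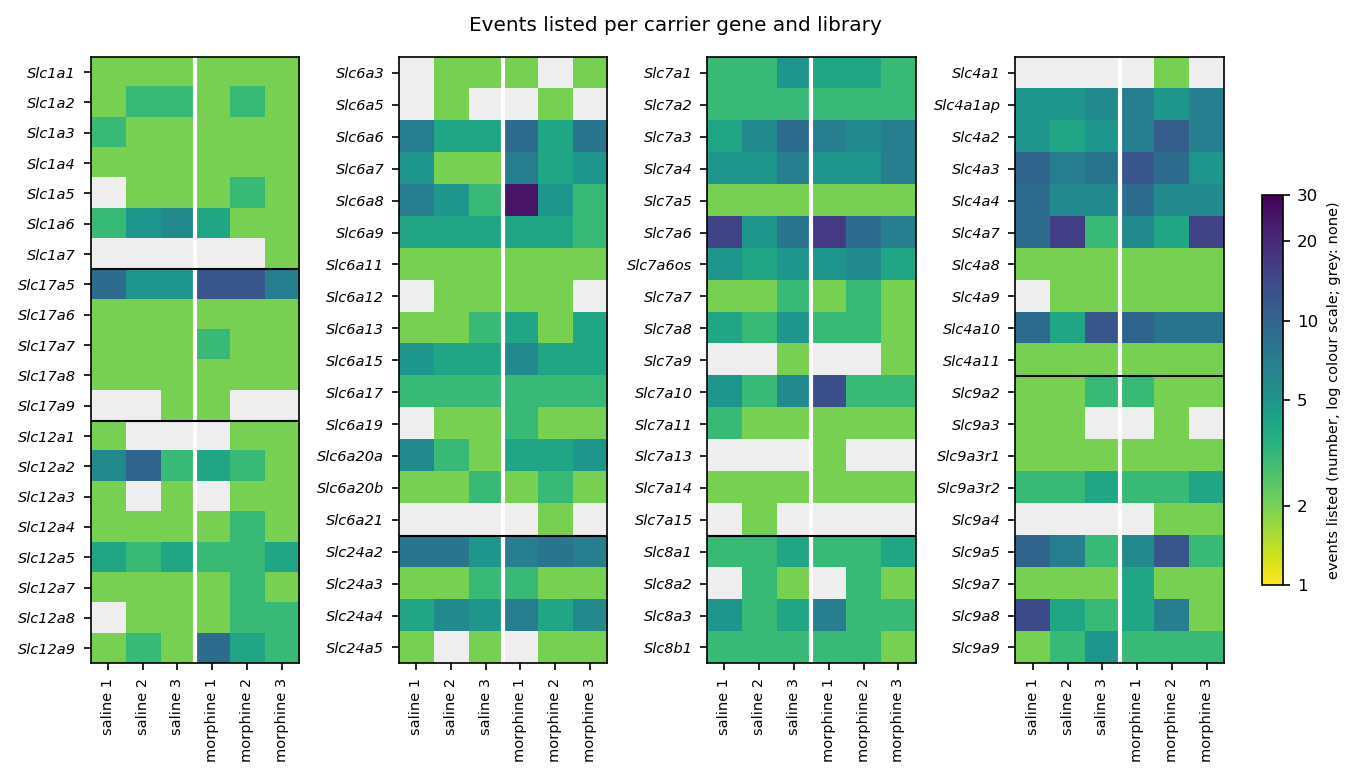
Number of events listed (colour, log scale from 1 to 30) for 77 of the 81 listed carrier genes (rows, by family, black lines between families) in each of the 6 libraries (columns, saline left and morphine right of the white line). Grey cells mark genes that were not listed in that library; Slc6a8 in morphine library 1, with 25 events, is the darkest cell and in Slc4a2 the groups do not overlap (4 to 5 against 7 to 11).

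Single events were compared by whether they were listed in all 3 libraries of one group and in none of the other. Among the 620 carrier events, 4 (0.645%) were listed in all morphine and no saline libraries, against 0.381% of all events, and 0 of 620 were listed in all saline and no morphine libraries, against 0.277%. The 4 events lay in 3 genes, and 2 of them share a retained region, so they are not independent.

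That pair lay in Slc17a5 (sialin, the lysosomal exporter of sialic acid, minus strand), in the intron upstream of the exon with 2 acceptors described above. The intron was listed as retained in all 3 morphine libraries and in no saline library, once measured to the upstream acceptor (chr9:78574754-78577029, 2276 nt) and once to the downstream acceptor (chr9:78574738-78577029, 2292 nt). Both acceptors were themselves listed in all 6 libraries. Intron retention events of the gene numbered 0, 0 and 0 in saline and 3, 4 and 2 in morphine. All of them are this same intron, measured to different acceptors or listed exactly and as approximate. They include the pair itself, so they are not separate introns and add no further support. The gene's total of 9, 5 and 5 in saline and 12, 12 and 7 in morphine overlapped between the groups, since saline library 1 held more events than morphine library 3. Intron retention events over all genes numbered 9534, 7291 and 6432 in the morphine libraries and 7925, 5435 and 5409 in the saline libraries, and their part in the result for Slc17a5 was not tested.

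The third event was a start of Slc4a11 (a member of the bicarbonate carrier family known from the cornea, minus strand). Its annotated first exon, with the splice-side edge at position 130697359 of chromosome 2, was listed in all 3 morphine libraries. Each saline library instead began the gene at the edge of a different internal exon. The annotated last exon was listed in morphine libraries 1 and 2 and in no other. Each library listed 1 start and 1 end of Slc4a11, so the event number was 2 in all 6.

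The remaining event was an end of Slc7a7 (y+LAT1, an exchanger of cationic for neutral amino acids, minus strand). Its annotated last exon, at position 54369886 of chromosome 14, was listed in all 3 morphine libraries. The saline libraries ended the gene at internal exon edges, libraries 1 and 3 at the same one and library 2 at another, and morphine library 2 listed the first of these too. The annotated first exon was listed in saline libraries 2 and 3 and all 3 morphine libraries. For Slc4a11, the annotated first exon and internal exon edges took each other's place in the lists. For Slc7a7, the annotated last exon and internal exon edges did so except in morphine library 2, which listed both. Relative depth was 1, 1.066 and 1.365 in the saline and 1.198, 1.594 and 1.285 in the morphine libraries. Its mean was higher in morphine, but saline library 3 lay above morphine libraries 1 and 3. The part of depth in these events was not tested.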

How the data were processed

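Total RNA of 3 saline and 3 morphine libraries was sequenced by the authors, mapped with HISAT2 and assembled with StringTie. The deposited lists of single libraries follow the layout of the ASprofile program. Their FPKM column holds 0 and negative whole numbers only and was not used. Genome build and annotation release are not given in the sources used here. About 99.3% of the gene identifiers of each list were found in GENCODE M21 (GRCm38), which gave exons and sequences. The deposited lncRNA table holds read counts and FPKM by the authors, and the ratios of its counts of at least 10 to FPKM gave the relative depths. Its fold changes and p-values are the authors' comparisons and were not used. Columns of other samples numbered 0.

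Included and skipped entries were merged into 1 event. Group means were compared with exact two-sided permutation tests (Python 3.11.15, scipy 1.17.1, pandas 2.3.3, numpy 2.4.6), adjusted over 6 numbers, and the counting was tested on simulated lists. Groups came from the treatment labels. The genes named are those with group-specific events or separated event numbers, the 10 with most events, those with a cassette exon in all libraries, and a list by role. Members, lists and tests were chosen with earlier results of these data known. The alternatives were events told apart by all coordinates, lists without approximate types or without other-strand events, scaling per 1000 events, and leaving out each library. Some genes that these rules name are not reported here singly and were left out of the plots, though the counts include them.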

Additional observations from a re-analysis of the deposited data

How the results depend on the processing

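Each of the 6 numbers per library kept its direction under events told apart by all coordinates, without approximate types and without other-strand events. Per 1000 events of the library, the difference in starts and ends became -0.0988 (exact permutation p = 0.4), and 5 carriers in place of 2 had separated event numbers. With each library left out in turn, the difference between morphine and saline ranged from 4 to 39.5 for all events, from 1 to 5.17 for exon skipping, from -0.167 to 20.2 for intron retention, from 0.167 to 10.7 for alternative exon ends, from 2.5 to 7.5 for starts and ends, and from 0.833 to 4.67 for genes listed. Without morphine library 1, intron retention gave the -0.167. With a library left out, group-specific events numbered 6 to 15 in place of 4, and carriers with separated numbers 3 to 6 in place of 2. Fewer libraries then have to satisfy the rule. The shares over all genes and all events are not given for these settings or per 1000 events. These counts therefore cannot be set against a background and show nothing particular to the carriers. Told apart by all coordinates, the events of Slc17a5 differed by 7 (4 as reported) and those of Slc4a2 by 6.67 (3.67). No p in this design can pass 0.05, so none speaks to stability. The cause of these shifts was not tested, apart from the smaller number of libraries. No paired analysis was possible because the labels give the groups no shared library numbers. Depth was known only in relative terms, and a rare form can be missed at any of these depths.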

Other observations

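Genes that work with the carriers were also examined. Of 26 partner genes that the symbol rule did not take, 23 were listed in all 6 libraries, 18 with an annotated start and end in all 6, and their event numbers summed to 135, 113 and 108 in saline and 117, 145 and 113 in morphine. In 0 of 26 did the event numbers of the groups not overlap, against 1.8% higher and 0.966% lower in morphine over all listed genes, a background at which under 1 of 26 would be met. Atp1b1 and Atp1b2, subunits of the sodium pump, had 2 events in every library. Of the WNK kinases, which regulate cation-chloride cotransport, Wnk1 (18 to 23 events) and Wnk2 (23 to 40) were the richest partner genes. Wnk3 had 4 to 12 events, and Wnk4 had 2 in every library. Gad1 and Gad2, which make GABA, had 4 and 2 events in every library, and the vesicular GABA carrier Slc32a1 had 2, 5 and 2 in saline and 2, 2 and 4 in morphine.

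The choline carrier Slc5a7, of cholinergic interneurons, had 3, 3 and 2 events in saline and 2, 9 and 3 in morphine. Slc18a3, the vesicular acetylcholine carrier, was not listed. Of the markers of other cells, the 3 ependymal genes were listed in all 6 libraries, as were the 4 genes of glutamate neurons of cortex and other regions. For choroid plexus, Ttr and Kl were listed in all 6 and Folr1 in 3. For endothelium, Pecam1 and Flt1 were listed in all 6 and Cldn5 in none. Genes with single-exon transcripts only are seldom listed, at 134 of 1331 protein-coding genes (10.1%). That Slc18a3 and Cldn5 were not listed therefore does not show that their transcripts were absent.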
